A study of Mus musculus with 12 samples.

Results

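Metallothioneins and the transporters that move zinc and manganese across liver cell membranes were followed in mouse liver RNA. The set holds 8 genes of the 35275 in the deposited table, taken by symbol: the metallothioneins Mt1 and Mt2, the exporters Slc30a1 and Slc30a10, and the importers Slc39a4, Slc39a5, Slc39a8 and Slc39a14. All 8 passed the filter of a mean of at least 0.5 FPKM. They were chosen by earlier comparisons of their FPKM across these same libraries, so their levels and their differences between the 4 groups are given as a description, with a standard error and no p-value. Over the 12 libraries Mt1 had the highest FPKM of the 8 in each library, and Slc39a5 was the lowest in 10 of 12.

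The mice were labelled Hnf4a liver knockout (KO) or wild type (WT) and ate a high fat diet (HFD) or vivarium chow, with 3 libraries in each of KO HFD, KO chow, WT HFD and WT chow. The 3 libraries of a group are biological replicates by the series' design text. Hnf4a encodes a nuclear receptor that sustains hepatocyte gene expression. How the gene was deleted is not given in the sources used here, nor are strain, age and sex.

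Zinc inside a cell is held in balance by proteins that bind it and proteins that carry it. Metallothioneins are small cysteine-rich proteins that bind zinc and copper. In liver their transcripts are known to respond to metals, through the zinc-sensing factor MTF1, and to glucocorticoids and inflammatory signals. Transporters of the ZnT family (Slc30a genes) move zinc out of the cytosol, and those of the ZIP family (Slc39a genes) move metal into it. Manganese shares part of this machinery: SLC39A8 and SLC39A14 import both metals, and SLC30A10 exports manganese, in liver into bile.

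The promoters of 6 of the 8 genes have an entry in the RefSeq table used (GRCm38.p6), which runs from 250 bases before to 50 bases after each annotated start. Slc39a4 and Slc39a14 have none. The 250 bases before the start are shown for both metallothioneins, whose control by metal is the textbook case, and for both exporters, written 5′ to 3′ on the gene's strand. Capitals mark matches, on either strand, to the core of the metal response element, searched as TGCACNC and TGCGCNC.
Mt1, chr8:94178839-94179088, plus strand: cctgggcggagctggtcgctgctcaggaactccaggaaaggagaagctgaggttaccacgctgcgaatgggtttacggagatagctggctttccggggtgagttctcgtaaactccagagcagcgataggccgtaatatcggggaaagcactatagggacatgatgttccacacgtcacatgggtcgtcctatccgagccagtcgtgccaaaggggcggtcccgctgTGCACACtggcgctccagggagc
Mt2, chr8:94172368-94172617, plus strand: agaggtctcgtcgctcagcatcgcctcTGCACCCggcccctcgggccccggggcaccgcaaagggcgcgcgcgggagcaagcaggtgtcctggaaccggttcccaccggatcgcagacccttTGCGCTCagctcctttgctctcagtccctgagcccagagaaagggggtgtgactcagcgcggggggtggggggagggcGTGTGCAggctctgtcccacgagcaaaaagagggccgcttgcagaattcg
Slc30a1, chr1:191906531-191906780, plus strand: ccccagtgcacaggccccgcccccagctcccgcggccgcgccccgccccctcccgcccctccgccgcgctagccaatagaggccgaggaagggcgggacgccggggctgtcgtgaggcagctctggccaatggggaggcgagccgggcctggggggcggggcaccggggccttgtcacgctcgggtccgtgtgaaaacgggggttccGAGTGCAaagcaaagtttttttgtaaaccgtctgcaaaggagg
Slc30a10, chr1:185454598-185454847, plus strand: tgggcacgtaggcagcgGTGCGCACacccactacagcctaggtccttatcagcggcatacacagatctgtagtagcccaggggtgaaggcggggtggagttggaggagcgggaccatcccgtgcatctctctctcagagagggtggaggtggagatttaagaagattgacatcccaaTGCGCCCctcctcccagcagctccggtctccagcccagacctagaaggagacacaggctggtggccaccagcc

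Over the full window of 300 bases Mt2 held 4 matches, Mt1 and Slc30a10 held 3 each, and Slc30a1 held 2. The 3 matches of Mt1 lay at bases −23 to −17, 3 to 9 and 21 to 27 from the 1 annotated start in the table. Bases more than 50 past that start were not searched, and whether transcription begins there in liver was not tested. In Slc30a10, 2 of the 3 matches overlapped, since the bases GTGCGCAC read as the core on both strands. Slc39a5 and Slc39a8 each have 2 annotated starts, with 1 match at 1 start and 0 at the other. Of 27018 promoters of this length in the table, 25.6% held at least 1 match, 7.11% at least 2, 2.0% at least 3 and 0.503% at least 4. The antioxidant response element, searched as TGACNNNGC, occurred once in Mt2 and once in Slc30a1, not in Mt1 or Slc30a10, and in 12.5% of all promoters. At 1 start of Slc39a5 it occurred 2 times and at 1 start of Slc39a8 once, and at their other starts it did not occur. A match is a string of letters and was not tested as a binding site.

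Depth ran from 15705196 to 20311766 reads on genes. Hnf4a did not follow the labels: it stood at 98.8 to 138 FPKM in KO HFD, 130 to 158 in KO chow and 116 to 133 in WT HFD, against 126, 75.8 and 0.0973 FPKM in WT chow 1, 2 and 3. Every direction below is therefore between libraries labelled KO and WT. WT chow 2 and 3 stood apart. In WT chow 3 Alb, the main liver-secreted protein, was at 11.9 FPKM, against 7604 FPKM or more in the other 11 libraries, and Ucp1, the brown fat uncoupler, was at 2339 FPKM. Hepatocyte genes (10 of the 11 listed found) summed to 28.7 FPKM in WT chow 3. In WT chow 2 they summed to 69785 FPKM, within the 67448 to 95001 FPKM of KO HFD, KO chow and WT HFD. WT chow 2 had a median correlation of 0.806 with the other libraries and WT chow 3 of 0.576, while the other 10 correlated pairwise at 0.931 to 0.988. Without these libraries WT chow holds 1 library, assumed to vary as the other groups do. Heart muscle genes (all 8 of the list found) summed to 0.241 to 0.484 FPKM in KO HFD and to 7.14 to 74.1 FPKM in the other groups. Acinar pancreas genes (all 12 of the list found) summed to 120 to 157 FPKM in KO HFD, 40.4 to 68.3 in KO chow, 62.5 to 84.0 in WT HFD and 27.9 to 95.8 in WT chow, and the part of either list in the results was not tested. The zymogen and lipase genes Ctrb1, Prss2 and Pnlip had reads in every KO HFD library and 0 reads in KO chow and WT HFD.

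Mt1 (ENSMUSG00000031765, chromosome 8, 94179089 to 94180325, GRCm38) and Mt2 (ENSMUSG00000031762, chromosome 8, 94172618 to 94173567) are neighbours on the plus strand and encode the metallothioneins of liver. Mt1 stood at 49.1, 154 and 177 FPKM in KO HFD 1 to 3 and at 52.8, 348 and 58.7 in KO chow. It stood at 37.1, 32.7 and 119 FPKM in WT HFD and at 96.7, 54.2 and 125 in WT chow. KO chow 2 was the highest of all libraries, and every group overlapped every other. Within a group the highest library was 3.60 times the lowest in KO HFD, 6.60 in KO chow, 3.65 in WT HFD and 2.31 in WT chow.

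Mt2 stood at 23.2, 58.9 and 89.4 FPKM in KO HFD, 7.35, 83.3 and 15.0 in KO chow, 5.27, 11.7 and 49.2 in WT HFD and 27.6, 19.9 and 28.1 in WT chow. Its highest library was 3.85 times its lowest in KO HFD, 11.3 times in KO chow, 9.34 times in WT HFD and 1.42 times in WT chow. The libraries with high Mt1 were those with high Mt2, KO chow 2 and KO HFD 3 leading both. Over the 10 libraries without WT chow 2 and 3 the 2 genes had a Pearson r of 0.904 on log2(FPKM + 1), and over 12 libraries 0.893, as a description of libraries that share groups and processing.

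**Figure D1:**
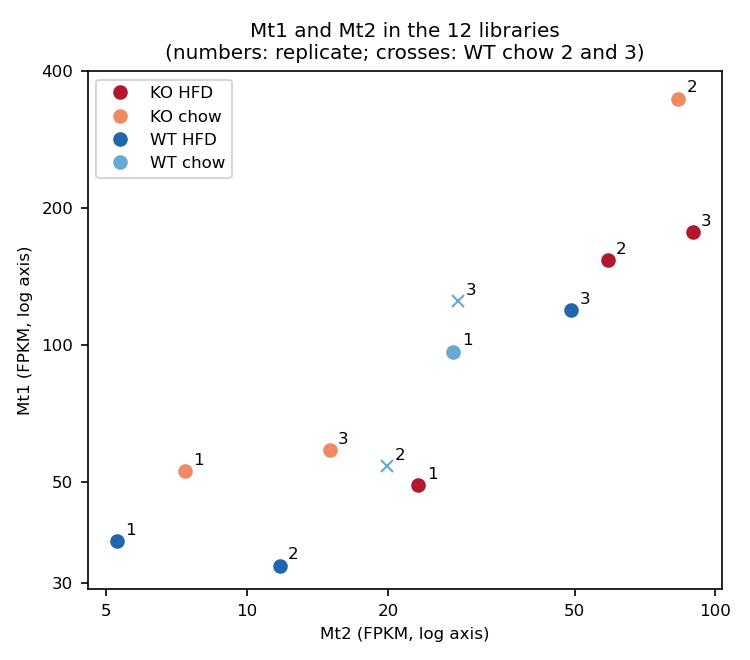
Mt1 against Mt2 in each of the 12 libraries (FPKM, both axes logarithmic), coloured by group in the order KO HFD, KO chow, WT HFD, WT chow. The points lie along a rising band, and libraries of 1 group are spread along it, such as KO chow with Mt1 at 52.8, 348 and 58.7 FPKM.

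In KO HFD Mt1 averaged 127 ± 68.1 FPKM and in WT HFD 63.0 ± 48.8 FPKM (SD, n = 3 each), a log2(FPKM + 1) difference of 1.05 with a standard error of 0.80. Mt2 averaged 57.2 ± 33.2 FPKM in KO HFD and 22.1 ± 23.7 FPKM in WT HFD, a difference of 1.68 with a standard error of 0.91. In both genes the ranges of KO HFD and WT HFD overlapped, since KO HFD 1 lay below WT HFD 3. Between diets among KO libraries, Mt1 averaged 127 FPKM in KO HFD and 153 ± 169 FPKM in KO chow, while the log2 difference was 0.10, so mean and log scale differ in sign. Mt2 averaged 57.2 FPKM in KO HFD and 35.2 ± 41.8 FPKM in KO chow, a log2 difference of 1.18, with KO chow 2 above 2 of the 3 KO HFD libraries. On chow Mt1 averaged 153 FPKM in KO and 92.0 ± 35.6 FPKM in WT, while Mt2 averaged 35.2 ± 41.8 FPKM in KO and 25.2 ± 4.62 FPKM in WT. The log2 difference of Mt2 on chow was −0.21, again of the other sign than the difference of the means. Against WT chow 1 alone, at 96.7 FPKM for Mt1 and 27.6 FPKM for Mt2, the log2 differences of KO chow were 0.09 with a standard error of 1.12 and −0.35 with one of 1.34. Between diets in WT, the differences of WT HFD were −0.71 for Mt1 and −0.71 for Mt2 with 12 libraries, and −0.86 and −0.85 with 10.

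Over the 10 libraries without WT chow 2 and 3 the metallothioneins varied more than any of the 6 transporters did on the log2 scale. Over all 12 libraries Slc39a4 varied more than both, with an SD of 1.69 in log2(FPKM + 1), against 1.02 for Mt1 and 1.25 for Mt2. In the 10 libraries the highest Mt1 value was 10.6 times the lowest and the highest Mt2 value 17.0 times the lowest. Their standard deviations on the log2 scale in those libraries exceeded those of 98.9% and 99.6% of the 12251 genes tested. Slc30a10 and Slc39a4 stood at 95.8% and 92.3%, Slc39a14 at 80.4%, and Slc30a1, Slc39a5 and Slc39a8 between 50.9% and 53.6%. These ranks are of log2(FPKM + 1), which understates the spread of low genes. The highest value of Slc39a5 was 8.73 times its lowest, which rests on 5 reads, against 4.89 times for Slc30a10 and 3.70 times for Slc39a4. The ratio of Mt1 to Mt2 was 1.98 to 2.61 in KO HFD, 3.91 to 7.18 in KO chow, 2.43 to 7.04 in WT HFD and 2.73 to 4.45 in WT chow, so the KO HFD values lay below those of KO chow and overlapped those of WT HFD. Mt2 overlaps the antisense gene Gm45774 by 795 bases in the GENCODE annotation. The counting's strand setting is unknown, so reads of a gene and of its antisense partner cannot be told apart.

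Slc30a1 (ENSMUSG00000037434, chromosome 1, 191906767 to 191913247), which encodes the zinc exporter of the plasma membrane and is itself an MTF1 target, stood at 4.53, 6.88 and 5.97 FPKM in KO HFD, 9.44, 8.35 and 8.14 in KO chow, 7.03, 6.19 and 6.15 in WT HFD and 7.77, 1.80 and 1.58 in WT chow. KO HFD lay below KO chow without overlap, with means of 5.80 ± 1.19 and 8.64 ± 0.698 FPKM (SD, n = 3 each) and a log2 difference of −0.52. Without WT chow 2 and 3, its 6 HFD libraries all lay below the 4 chow libraries. Over the 10 libraries the Pearson r of Slc30a1 was 0.17 with Mt1 and −0.21 with Mt2. The part of MTF1 in these values was not tested.

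Slc30a10 (ENSMUSG00000026614, chromosome 1, 185454848 to 185468762) encodes the manganese exporter of the hepatocyte's bile-facing membrane. Its libraries separated by diet only without WT chow 2 and 3, which lay below every HFD library. WT chow 2 had a hepatocyte gene sum within the range of the other groups. Slc30a10 stood at 1.64, 1.42 and 2.82 FPKM in KO HFD, 4.33, 6.57 and 5.50 in KO chow and 1.34, 1.67 and 1.97 in WT HFD. In WT chow it stood at 5.87, 0.182 and 0 FPKM, the 0 being no read in WT chow 3, where 3 reads would be 0.0312 FPKM, and the 0.182 being 20 reads in WT chow 2. KO HFD lay below KO chow without overlap.

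The mean of Slc30a10 was 1.96 ± 0.754 FPKM in KO HFD against 5.47 ± 1.12 FPKM in KO chow (SD, n = 3 each), a log2 difference of −1.14 with a standard error of 0.58. In WT HFD it was 1.66 ± 0.312 FPKM, against 5.87 FPKM in WT chow 1, a log2 difference of −1.38 in the fit of 10 libraries. With WT chow 2 and 3 in the fit the same difference was 0.40. Over the 6 HFD libraries the mean was 1.81 ± 0.542 FPKM and over the 4 chow libraries without WT chow 2 and 3 it was 5.57 ± 0.937 FPKM, a ratio of 0.325. Between genotype labels Slc30a10 differed by 0.13 on HFD (standard error 0.21 in the fit of 10 libraries) and by −0.10 on chow against WT chow 1. Relative to the median gene, the log2 difference of KO HFD from KO chow was −1.08 as deposited, −1.20 after scaling to TPM and −1.06 after median-of-ratios scaling.

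**Figure D2:**
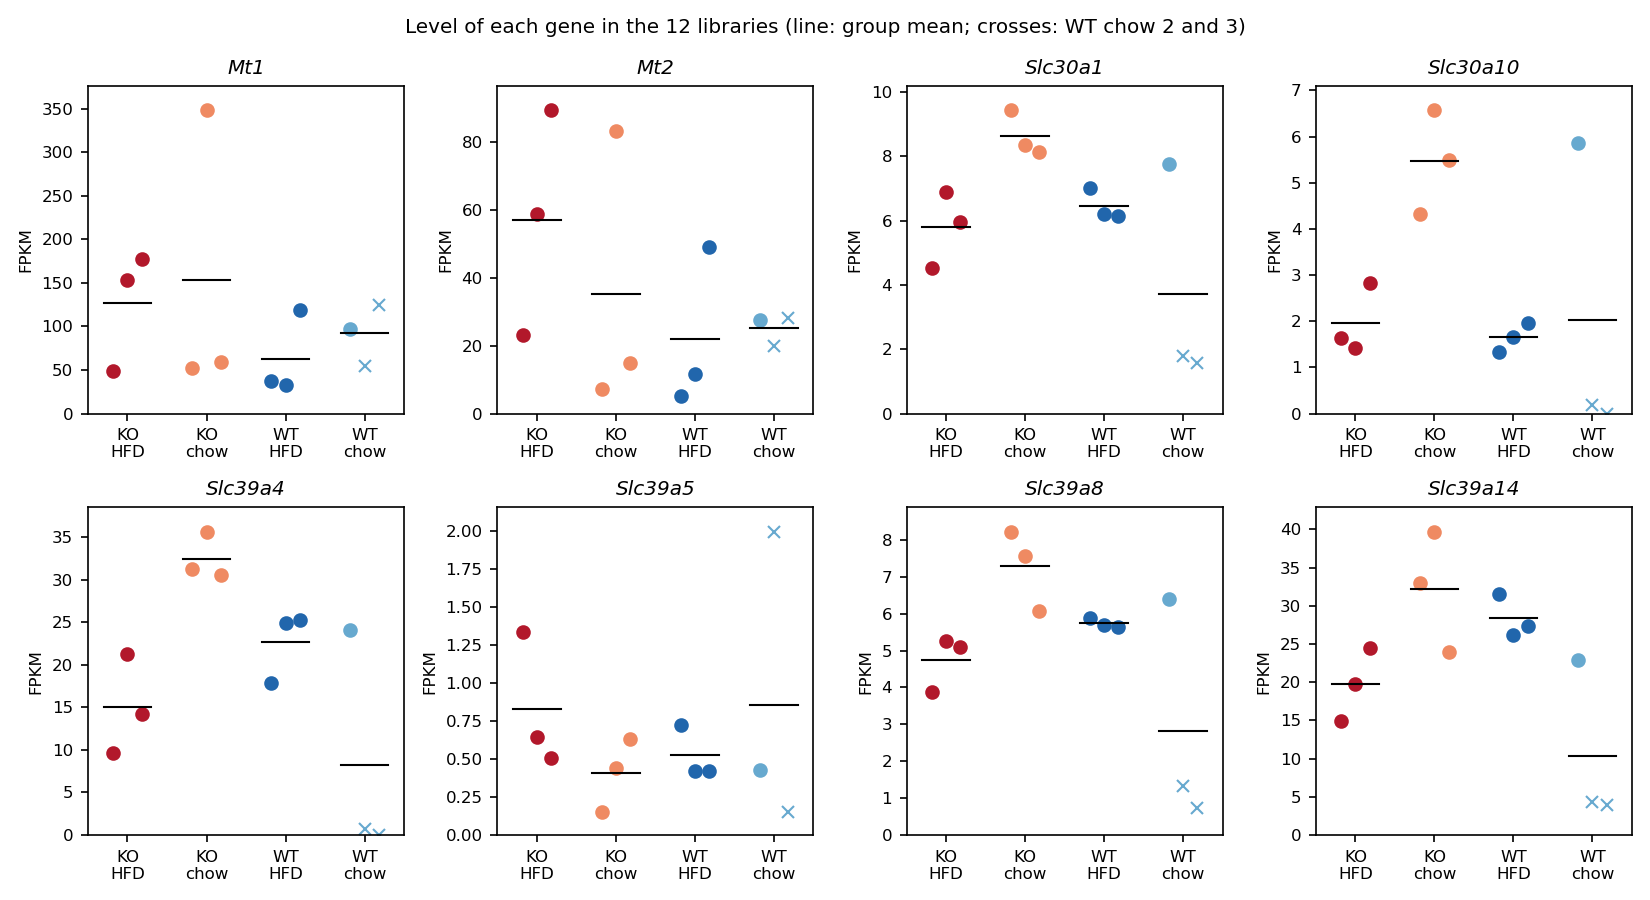
FPKM of each of the 8 genes in every library, a panel per gene with its own axis starting at 0, groups in the order KO HFD, KO chow, WT HFD, WT chow. Points are libraries, crosses are WT chow 2 and 3, and lines are group means of 3 libraries. WT chow 2 and 3 sit below the other libraries for Slc30a10, Slc39a4, Slc39a8, Slc39a14 and Slc30a1, and not for Mt1 or Mt2.

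Slc39a14 (ENSMUSG00000022094, chromosome 14, 70303469 to 70351425) imports zinc, manganese and non-transferrin-bound iron into hepatocytes and is known as an IL-6 responsive gene. It stood at 15.0, 19.8 and 24.5 FPKM in KO HFD, 32.9, 39.7 and 23.9 in KO chow, 31.6, 26.2 and 27.3 in WT HFD and 22.9, 4.37 and 3.93 in WT chow. On HFD the KO libraries all lay below the WT libraries, with means of 19.8 ± 4.76 and 28.4 ± 2.84 FPKM (SD, n = 3 each) and a log2 difference of −0.52. KO HFD 3 stood above KO chow 3, and the means of KO HFD and KO chow were 19.8 and 32.2 FPKM. The 3 WT HFD libraries lay above all 3 WT chow libraries, and their mean was 1.24 times the value of WT chow 1.

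Slc39a8 (ENSMUSG00000053897, chromosome 3, 135825279 to 135888572), the close relative that carries zinc and manganese, was lower than Slc39a14 in every library. It stood at 3.89, 5.26 and 5.10 FPKM in KO HFD, 8.22, 7.56 and 6.08 in KO chow, 5.88, 5.69 and 5.64 in WT HFD and 6.39, 1.32 and 0.720 in WT chow. KO HFD lay below both KO chow and WT HFD without overlap. The mean was 4.75 ± 0.750 FPKM in KO HFD, against 7.29 ± 1.10 FPKM in KO chow and 5.74 ± 0.127 FPKM in WT HFD. Slc39a14 was 3.76 to 4.80 times Slc39a8 in KO HFD, 3.94 to 5.25 times in KO chow and 4.60 to 5.37 times in WT HFD. Both are on a per-length scale.

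The balance of the manganese importer to the exporter was read as a ratio on the per-length scale. The ratio of Slc39a14 to Slc30a10 was 9.10, 13.9 and 8.67 in KO HFD, 7.60, 6.04 and 4.35 in KO chow, 23.5, 15.7 and 13.9 in WT HFD and 3.90 in WT chow 1. All 6 HFD libraries had a higher ratio than the 4 chow libraries. Slc30a10 alone separated the same libraries by diet, while Slc39a14 overlapped between diets, so the ratio is not a separate result. WT chow 2 had a ratio of 24.0 on 20 reads of Slc30a10, and none could be formed for WT chow 3.

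Slc39a4 (ENSMUSG00000063354, chromosome 15, 76612385 to 76616852) is best known as the zinc importer of the intestinal epithelium, mutated in acrodermatitis enteropathica. It stood at 9.62, 21.2 and 14.2 FPKM in KO HFD, 31.2, 35.6 and 30.5 in KO chow, 17.8, 24.9 and 25.2 in WT HFD and 24.0, 0.692 and 0.0273 in WT chow. KO HFD lay below KO chow without overlap, with means of 15.0 ± 5.85 and 32.5 ± 2.76 FPKM (SD, n = 3 each), a log2 difference of −1.13 with a standard error of 0.92 (0.25 in the fit of 10 libraries). WT HFD averaged 22.6 ± 4.18 FPKM and WT chow 1 stood at 24.0 FPKM, inside the range of WT HFD. Small intestine genes (all 10 of the list found) summed to 123 to 497 FPKM in KO HFD, 102 to 124 in KO chow and 114 to 845 in WT HFD, against 1.61 to 150 in WT chow. The KO HFD sums overlapped those of KO chow, but single genes of the list did not. Defa24 and Sis had reads in every KO HFD library and none in KO chow or WT HFD. In WT chow Defa24 had reads and Sis had none. The part of these genes in the values of Slc39a4 was not tested.

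Slc39a5 (ENSMUSG00000039878, chromosome 10, 128395934 to 128401224), a zinc importer of the basolateral membrane in intestine and pancreas, had the fewest reads of the 8 outside WT chow 2 and 3. It stood at 1.33, 0.644 and 0.504 FPKM in KO HFD, 0.153, 0.438 and 0.629 in KO chow, 0.723, 0.424 and 0.421 in WT HFD and 0.429, 1.99 and 0.150 in WT chow, which rest on 5 to 76 reads each. The groups overlapped in every comparison. The gene lies wholly inside Ankrd52 on the opposite strand, over 5291 bases, and Ankrd52 stood at 1.28 to 6.82 FPKM, so its values are uncertain. Slc30a10, Slc30a1 and Slc39a8 also overlap other annotated genes on the opposite strand, and Slc39a8 overlaps Gm43428 by 3845 bases and Gm43429 by 2251 bases on its own strand, which no strand setting separates. In bulk RNA fewer cells of a type and less RNA per cell cannot be told apart.

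**Figure D3:**
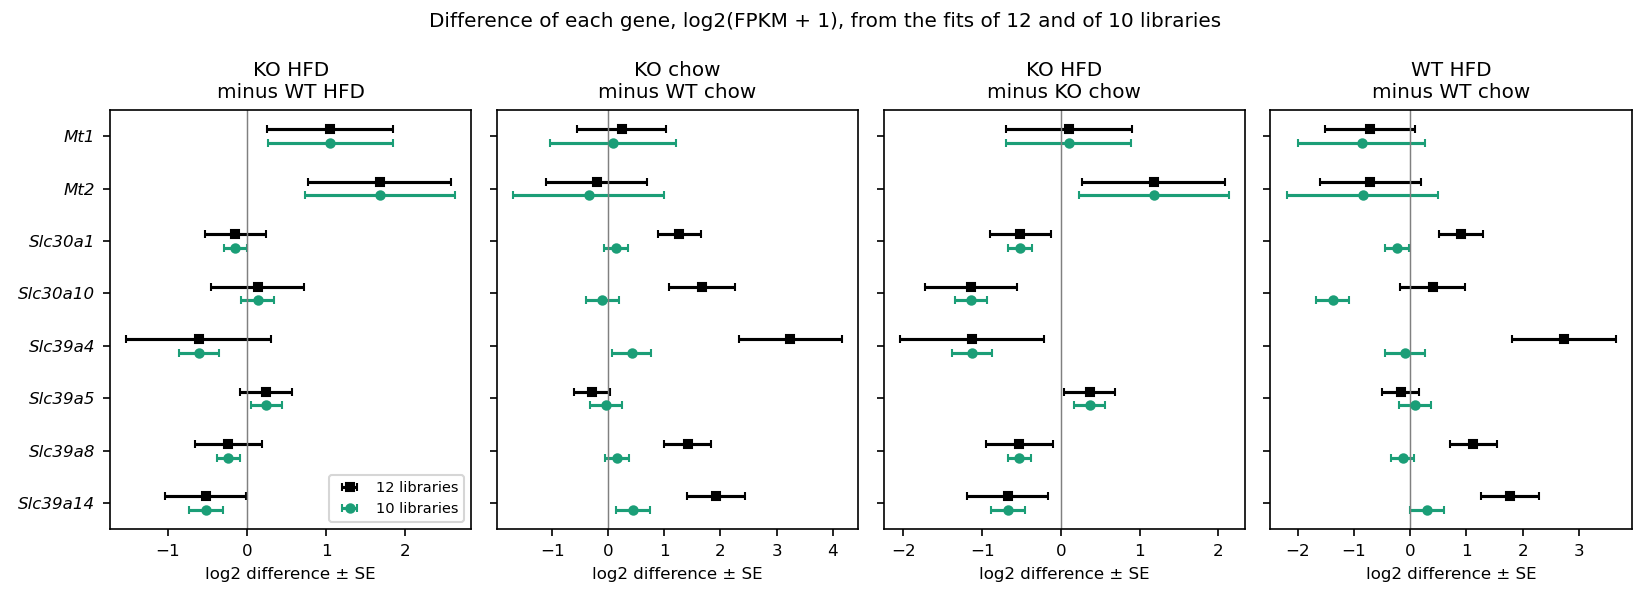
Differences in log2(FPKM + 1) of the 8 genes in each comparison, with standard errors as bars, from the fit of 12 libraries and the fit of 10 libraries without WT chow 2 and 3. In the WT diet comparison the difference of Slc30a10 is 0.40 with 12 libraries and −1.38 with 10, and in the KO diet comparison the standard error of Slc39a4 is 0.92 with 12 libraries and 0.25 with 10.

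Counts of members called were few. In the fit of 12 libraries (limma, Benjamini-Hochberg over the 12251 genes tested, threshold 0.05) 0 of 8 were called in any of the 5 comparisons, where 0.155% of genes were called for KO HFD against WT HFD, 0% for KO chow against WT chow, 0.155% for KO HFD against KO chow, 0% for WT HFD against WT chow and 0.122% for the interaction of label and diet. At an unadjusted p under 0.05 the counts were 0, 5, 0, 4 and 4 of 8, beside 1.27%, 21.1%, 7.54%, 14.7% and 16.6% of all genes. limma-voom on the recovered reads called 0 of 8 in each, beside 0.122%, 0%, 0.098%, 0% and 0% of genes in the same order. The members were chosen with these contrasts known, so nothing is read from their counts. The comparisons with WT chow moved most with WT chow 2 and 3: for KO chow against WT chow the log2 difference of Slc39a4 was 3.25 with 12 libraries and 0.42 with 10, and that of Slc39a14 was 1.92 and 0.45.

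In the fit of 10 libraries 2 of 8 were called for KO HFD against KO chow, Slc30a10 and Slc39a4, both lower, where 6.24% of all genes were called lower, 1.52% higher and 7.76% in either direction. In the other 4 comparisons 0 of 8 were called, at 0.18% of genes for KO HFD against WT HFD, 0.00816% for KO chow against WT chow, 0.00816% for WT HFD against WT chow and 0.0816% for the interaction. At an unadjusted p under 0.05 the counts were 2, 0, 5, 1 and 2 of 8 in the order KO HFD against WT HFD, KO chow against WT chow, KO HFD against KO chow, WT HFD against WT chow and interaction, beside 12.5%, 2.8%, 29.2%, 2.38% and 10.2% of all genes. These calls were not stable to the libraries: with each of 9 libraries left out in turn, Slc30a10 was called in 2 of 9 and Slc39a4 in 2 of 9. Slc30a10 was kept without KO HFD 3 and without KO chow 3, and Slc39a4 without KO HFD 2 and without KO chow 3. In all, 951 genes were called with 10 libraries, and between 17 and 1535 in those fits. The differences themselves kept their sign but changed in size. That of Slc30a10 ran from −1.34 without KO HFD 3 to −1.01 without KO HFD 2. That of Slc39a4 ran from −1.39 without KO HFD 2 to −0.86 without KO HFD 1.

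Groups that did not overlap were counted per comparison. For KO HFD against WT HFD Slc39a8 and Slc39a14 were lower in all 3 KO libraries, 2 of 8 genes beside 12.4% of all genes in that direction, and none was higher beside 7.37%. For KO chow against WT chow Slc30a1, Slc39a4 and Slc39a14 were higher in all 3 KO libraries, 3 of 8 beside 12.4%, and none was lower beside 4.43%. Against WT chow 1 alone the same 3 genes were higher, beside 34.3% of all genes higher, and none was lower beside 17.8%. For KO HFD against KO chow Slc30a1, Slc30a10, Slc39a4 and Slc39a8 were lower, 4 of 8 beside 21.6%, and none was higher beside 9.98%. For WT HFD against WT chow Slc39a14 was higher, 1 of 8 beside 6.82%, and none was lower beside 4.35%. Against WT chow 1 alone Slc39a14 was higher in all 3 WT HFD libraries, beside 24.4%, and Slc30a1, Slc30a10 and Slc39a8 were lower, 3 of 8 beside 21.5%. Over all 6 HFD and 4 chow libraries without WT chow 2 and 3, Slc30a1, Slc30a10 and Slc39a8 were lower on HFD, 3 of 8 beside 3.68%, and none was higher beside 0.996%.

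Across the 10 libraries the transporters other than Slc39a5 varied together to different degrees, with r from 0.41 to 0.94. Slc30a1 and Slc39a8 had a Pearson r of 0.94, Slc39a4 and Slc39a8 of 0.87, Slc30a1 and Slc39a4 of 0.85 and Slc39a8 and Slc39a14 of 0.85. Slc39a5 and Slc39a8 had a Pearson r of −0.84 but a Spearman rho of −0.53 over the 10 libraries, and a Pearson r of −0.31 over 12, with Slc39a5 resting on few reads. Between a metallothionein and a transporter r lay between −0.21 and 0.40.

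The genes whose pattern was most like each member were taken as the 3 protein-coding genes with the highest r over the 10 libraries, among 9773 with a mean of at least 1 FPKM (9774 for Slc39a5). For Slc30a10 they were Cyp2c55, a cytochrome P450 (0.973), Acss2, which makes acetyl-CoA from acetate (0.965), and Nsdhl, an enzyme of cholesterol synthesis (0.961). Cyp2c55 kept an r of 0.903 over 12 libraries, while Nsdhl had one of 0.547 and Acss2 one of 0.0786. Cyp2c55 stood at 0.525, 0.575 and 1.79 FPKM in KO HFD, 10.8, 14.4 and 9.0 in KO chow, 0.393, 0.258 and 0.513 in WT HFD and 9.43, 0.133 and 0 in WT chow. Like Slc30a10, it was low in all 6 HFD libraries, high in the 3 KO chow libraries and WT chow 1, and near 0 in WT chow 2 and 3.

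**Figure D4:**
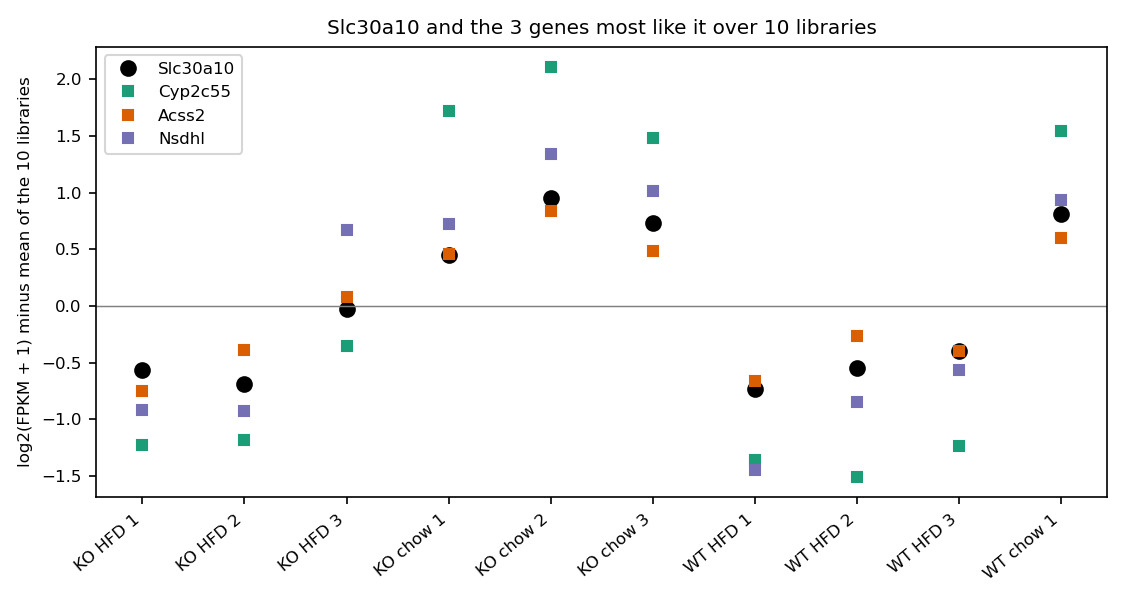
log2(FPKM + 1) of Slc30a10 and of the 3 genes most like it, Cyp2c55, Acss2 and Nsdhl, each as its difference from its own mean, in the 10 libraries without WT chow 2 and 3, in the order KO HFD, KO chow, WT HFD, WT chow. All 4 are lower in the HFD libraries than in the KO chow libraries and WT chow 1. The 3 genes were picked by their r with Slc30a10 over these same 10 libraries, so the shared pattern follows from the choice.

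For the other members the leaders were Mt2, Asns (asparagine synthetase) and Prg4 for Mt1, and Ap2m1, Mt1 and Gpr89 for Mt2. For Slc30a1 they were Spop, Fbxo8 and Bhlhe41, for Slc39a4 Pdp2, Ugt2b35 and Dock8, and for Slc39a8 Tmem170b and Trip4 were among them. For Slc39a5 they were Gtf2a2, Metap1d and Rps29. For Slc39a14 they were Il6st (0.952, and 0.674 over 12 libraries), the shared receptor subunit of IL-6 family cytokines, Srsf4 and Cdc42bpg. Over 12 libraries r among the genes named here ran from 0.203 for Ap2m1 with Mt2 to 0.990 for Trip4 with Slc39a8. Ap2m1 and Gpr89 varied little, at 49.4 to 59.9 and 5.05 to 6.42 FPKM, so their r with Mt2 rests on small differences.

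Other genes of the same pathways were read from lists. In the fit of 12 libraries none of the genes in 8 other lists was called in any of the 5 comparisons, nor by limma-voom. Between 0 and 6 genes of a list were at an unadjusted p under 0.05, beside 1.27% to 21.1% of all genes by comparison. Of the other ZnT exporters 6 of 8 were tested. For KO HFD against WT HFD all 6 had a negative difference, with a median of −0.16 beside −0.03 over all genes. At an unadjusted p under 0.05 there were 0 of 6, beside 1.27% of all genes. For KO HFD against KO chow 5 of 6 were negative, with a median of −0.40 beside −0.06. Slc30a9, Slc30a5 and Slc30a6 had the highest means over the 12 libraries, at 12.2, 11.9 and 5.10 FPKM. Slc30a3 had the lowest difference in both, at −0.26 and −0.67, and Slc30a6 the highest, at −0.07 and 0.04. Of the other ZIP importers 8 of 10 were tested, with medians of 0.04 and −0.02 in these comparisons, and Slc39a1, a zinc importer of the plasma membrane, was the most abundant at 35.6 ± 1.62 FPKM in KO HFD and 37.8 ± 6.91 FPKM in WT HFD. Slc39a11 and Slc39a9 followed, with means of 9.81 and 8.61 FPKM over the 12 libraries. Slc39a9 had the lowest difference in both comparisons, at −0.24 and −0.50, and the highest were Slc39a13 at 0.22 and Slc39a2 at 0.13. Mtf1, the zinc sensor, averaged 1.66 ± 0.293 FPKM in KO HFD, 2.52 ± 0.136 in KO chow, 1.96 ± 0.191 in WT HFD and 1.62 ± 0.587 in WT chow. Mtf2 averaged 1.54 FPKM over the 12 libraries. Mt3 and Mt4, metallothioneins best known from brain and from squamous epithelium, did not pass the filter, with at most 0.615 and 0.271 FPKM in any library.

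Manganese and copper genes showed single differences. In the fit of 10 libraries, for KO HFD against KO chow, the Golgi calcium and manganese pump Atp2c1 fell (log2 difference −0.56, adjusted p = 0.0492) and so did Glul, the manganese-dependent glutamine synthetase (−0.64, adjusted p = 0.0408), 2 of 11 tested, beside 6.24% of all genes called lower. Glul averaged 310 ± 33.4 FPKM in KO HFD and 481 ± 18.1 FPKM in KO chow. Atox1, the copper chaperone, rose (0.94, adjusted p = 0.0408), 1 of 11 beside 1.52% of all genes called higher, averaging 305 ± 34.3 FPKM in KO HFD and 163 ± 51.9 FPKM in KO chow. Sod1 and Arg1, the most abundant genes of the copper and manganese lists, were not called, with 1693 ± 346 FPKM in KO HFD and 1386 ± 173 FPKM in KO chow for Sod1, and 893 ± 68.1 FPKM in KO HFD and 866 ± 161 FPKM in KO chow for Arg1. Pck1, the gluconeogenic enzyme that uses manganese, had a difference of −0.37, and Cp, the plasma copper carrier ceruloplasmin, one of 0.25. The lowest copper difference was that of Atp7b, the copper exporter of hepatocytes, at −0.85. Each of Atp2c1, Glul and Atox1 was called in 1 of 9 fits that left out a further library. Atp7b, not called with 10 libraries, was called in 2 of 9 of those fits.

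Signals known to act on metallothioneins or Slc39a14 were read the same way. Of 16 IL-6 and STAT3 responsive genes, 14 had a positive difference for KO HFD against WT HFD, with a median of 0.70 beside −0.03 over all genes. In the fit of 12 libraries 1 of 16 was at an unadjusted p under 0.05, beside 1.27% of all genes. Hamp, the iron hormone hepcidin, had the largest difference, at 2.91, with 3837 ± 1236 FPKM in KO HFD and 1936 ± 1686 FPKM in WT HFD. Hamp ran from 2463 to 4858 FPKM in KO HFD and from 13.1 to 3161 FPKM in WT HFD, with a WT HFD median of 2634. The groups overlapped, and the size of the difference rests largely on 1 low WT HFD library. Il6ra, the IL-6 receptor, had the lowest difference, at −1.22. Hp (haptoglobin) and Fgb (fibrinogen beta chain), abundant secreted proteins of that list, had differences of 0.72 and 0.38. Lcn2, an acute-phase protein that binds iron carriers and is on the glucocorticoid list too, stood at 83.6 to 91.2 FPKM in KO HFD, 9.04 to 15.9 in KO chow, 2.44 to 99.2 in WT HFD and 0.485 to 159 in WT chow. For KO HFD against KO chow 11 of 16 were positive, and Il6st fell (−0.68, adjusted p = 0.0481 in the fit of 10 libraries), 1 of 16 beside 6.24% of all genes called lower. Of 13 glucocorticoid responsive genes Klf9 fell (−1.47, adjusted p = 0.0290) and the receptor gene Nr3c1 fell (−0.67, adjusted p = 0.0334) in that fit, 2 of 13 beside the same 6.24%. Tat and Angptl4, abundant genes of that list, had differences of −0.43 and 0.78 between KO HFD and KO chow. Klf9 was kept in 3 of 9 further left-out fits, Nr3c1 in 2 and Il6st in 1. Of 9 NRF2 and oxidative stress genes tested none was called, with a median of 0.13 for KO HFD against WT HFD and 0.05 for KO HFD against KO chow. The glutathione synthesis genes Gclc and Gclm had differences of −0.23 and −0.38 for KO HFD against WT HFD. The glutathione transferases Gsta2 and Gsta1 had differences of 0.68 and 2.18, with standard errors of 1.29 and 1.05 in the fit of 12 libraries. Gsta1 ran from 3.17 to 132 FPKM in KO HFD, with a median of 17.8. In WT HFD it ran from 1.19 to 8.45 FPKM, with a median of 4.38. The ranges of KO HFD and WT HFD overlapped for Gsta1 and for Gsta2. The part of these signals in the values of Mt1, Mt2 and Slc39a14 was not tested.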

How the data were processed

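RNA of 12 samples labelled liver was sequenced, 3 libraries in each of 4 groups, and the markers of the library WT chow 3 go against that label. The values deposited by the authors are FPKM, which scale fragments by gene length and library depth. Gene lengths and GRCm38 coordinates stand beside them. The submitters' processing notes name HTSeq 0.6.1, STAR, TopHat, CASAVA and DESeq2 (version 2), and the builds GRCm38 and mm10, with no roles. The annotation release and strand setting were not stated. FPKM times gene length gave whole reads for 100% of values (tolerance 0.1), 15705196 to 20311766 reads per library. The floor for a value of 0 is 3 reads, which covers counting error only.

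Genes with a mean of at least 0.5 FPKM (12251) were fitted as log2(FPKM + 1) with limma 3.58.1 in R 4.3.3 (empirical Bayes with a trend), with 4 group means and 5 contrasts, Benjamini-Hochberg adjusted over all genes at 0.05. Differences understate the change of low genes. A fit of 10 libraries left out WT chow 2 and 3, and limma-voom used the recovered reads. The script was tested on simulated data. The members and lists were chosen with earlier results of these data known. Named genes were all members, Hnf4a, and from each list the 3 genes with the highest mean, every gene called and most extremes of the comparisons described. Mt4 and the marker genes were named outside this rule. For each member the 3 most alike protein-coding genes were named, except 1 that is not reported here. Promoters came from RefSeq and overlaps from GENCODE M21, and 34490 identifiers matched the names table. Figures used matplotlib 3.10.9 in Python 3.11.15.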

Additional observations from a re-analysis of the deposited data

Results flagged for a closer look

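For 5 transporters every library of 1 group lay on 1 side of its control group's mean, and every library of the matching group lay on the opposite side of its own control's mean. The difference between the contrasts was not tested for this choice of genes. The interaction fits, whose p-values are adjusted over all genes, called none of the 8. Ratios are of mean FPKM. Slc30a1 was 0.671 in KO HFD over KO chow and 1.74 in WT HFD over WT chow, where WT HFD over WT chow 1 alone gave 0.831. Slc39a4 was 0.462 in KO HFD over KO chow and 2.75 in WT HFD over WT chow (0.943 over WT chow 1), and 0.663 in KO HFD over WT HFD and 3.94 in KO chow over WT chow (1.35 over WT chow 1). Slc39a5 was 2.04 in KO HFD over KO chow and 0.610 in WT HFD over WT chow (1.22 over WT chow 1). Slc39a8 was 0.652 in KO HFD over KO chow and 2.04 in WT HFD over WT chow (0.898 over WT chow 1), and 0.828 in KO HFD over WT HFD and 2.59 in KO chow over WT chow (1.14 over WT chow 1). Slc39a14 was 0.614 in KO HFD over KO chow and 2.73 in WT HFD over WT chow (1.24 over WT chow 1), and 0.697 in KO HFD over WT HFD and 3.10 in KO chow over WT chow (1.41 over WT chow 1). Over WT chow 1 alone the diet ratios in WT of Slc30a1, Slc39a4 and Slc39a8 were below 1 and that of Slc39a5 lay above 1, while the other ratios over WT chow stayed above 1.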

How the results depend on the processing

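Of 875 differences recomputed for the 8 genes under the alternatives, 846 kept their sign. The 29 that did not were spread over 13 differences, among them Mt1 between diets in KO, in 5 settings. Genes called for KO HFD against WT HFD numbered 19, with 3 at a minimum mean of 2 FPKM and 33 with array weights. For KO chow against WT chow there were 0, with 4 without a filter, 1 with 10 libraries and 3 with 9 (also without KO HFD 1). For KO HFD against KO chow there were 19, with 31 without a filter, 3 at a minimum of 2 FPKM, 951 with 10 libraries, 39 with 9, 2420 with array weights and 12 with limma-voom. For WT HFD against WT chow there were 0, with 1 with 10 libraries and 3 with 9. For the interaction there were 15, with 6 at a pseudocount of 0.1, 25 without a filter, 1 at a minimum of 2 FPKM, 24 with 9 libraries, 7 with array weights and 0 with limma-voom. The cause was not tested.

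With each library left out the counts ran from 16 to 20, 0 to 2981, 14 to 24, 0 to 2435 and 5 to 2265 in the same order, and 2981 and 2435 came without WT chow 1. With a replicate block the counts were 18, 0, 17, 0 and 4. The numbers were not taken to pair the samples, since 2 of 18 pairs with the same number had deviations correlated above 0.1, and 2 of 12 libraries correlated best with their own number. TPM scaling moved the median log2 difference of all genes to −0.13, 0.25, −0.23, 0.12 and −0.37, against −0.10 to 0.08 as deposited. The 10-library fits were chosen after earlier results of these data were known. Values of Slc39a5, and of Slc30a10 in WT chow 2 and 3, rest on few reads.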
